A study of Mus musculus with 17 samples.

Results

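Klf2, Klf4, Nos3, Thbd, S1pr1, Tek, Kdr, Vwf, Pecam1 and Cdh5 are genes by which endothelial cells, the lining of blood vessels, are recognised or by which they answer blood flow. These 10 genes, of 31245 in the table, were found by their gene symbols in counts of whole mouse lung RNA. Klf2 was selected on its opposite PFOA differences in 2 genotypes of these libraries, so its values in those genotypes are given as a description without a test. The other 9 genes were added to see whether endothelial content or the flow response followed it.

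The data came from 17 mice in 6 groups. Wild-type (WT) Sv/129 mice were purchased. PPARα null (KO) and humanized PPARα (KI) mice, which carry the human receptor in place of the mouse receptor, were bred from PPARα null and human PPARα heterozygous pairs. In comparisons of KO or KI with WT, genotype and source therefore cannot be told apart. Perfluorooctanoic acid (PFOA), a surfactant with a fully fluorinated carbon chain that activates the nuclear receptor PPARα, was given at 6.2 μg/mL in drinking water that held 0.5% sucrose, and vehicle mice drank the sucrose water alone. All mice were 6 weeks old at the start, ate the same custom diet modelled on the diet of American adults, and were exposed for 14 weeks. WT vehicle comprised 2 mice (1 female, 1 male), WT PFOA 3 (1 female, 2 males), KO vehicle and KO PFOA 3 females each, and KI vehicle and KI PFOA 2 females and 1 male each. Mice are named below by the numbers in their labels.

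Laminar shear stress at the vessel wall raises the zinc-finger transcription factors KLF2 and KLF4 through the kinases MEKK3, MEK5 and ERK5 and the factor MEF2. They in turn raise the nitric oxide synthase gene Nos3 and the anticoagulant receptor gene Thbd and lower adhesion molecules and endothelin. The lung is among the tissues richest in endothelium, most of it capillary. Klf2 is also active outside the endothelium, for instance in resting T cells, where it maintains S1pr1.

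The 6 alveolar type 2 cell markers, such as the surfactant gene Sftpc, summed to 3151 to 9952 CPM (counts scaled to the library's total), as the lung label calls for. Total counts per library ranged from 4116116 to 9237385 (median 7524817), and the 10 genes were far above the floor of 3 counts except Nos3, which had 46 to 123 counts per library. In mouse 122 (WT vehicle) and mouse 137 (KO vehicle) protein-coding genes held 65.3% and 61.3% of the counts, against 74.4% to 80.4% in the 15 others. These 2 vehicle libraries were also low in most endothelial genes, and WT and KO values from fits without mouse 122 or mouse 137 are given beside results that moved with them (for the gene lists, fits chosen after the values were seen). The 3 KO PFOA libraries shared an i5 index that no KO vehicle library carried, so in KO the index and the exposure cannot be told apart. The Ppara count was not lower in the libraries labelled KO (8.82 to 11.7 CPM) than in WT (4.39 to 7.21 CPM), and was 9.08 to 20.4 CPM in KI. It is counted over the whole gene, which checks no deletion of a part of it, so the genotypes are those of the labels.

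The promoters of Klf2 and Klf4 are shown because these genes followed each other most closely across the libraries. Both are RefSeq sequences of build GRCm38.p6, from 250 bases before to 50 bases after the start site in the RefSeq table, and 4 of the 10 genes had an entry. That start site lies 29 bases inside the Klf2 gene and 9 bases before the Klf4 gene as GENCODE places them. Capitals mark matches on either strand to the CACCC box bound by KLF factors, the GC box GGGCGG, the cAMP response element core TGACG and the MEF2 box.
Klf2, chr8:72318812-72319111, plus strand: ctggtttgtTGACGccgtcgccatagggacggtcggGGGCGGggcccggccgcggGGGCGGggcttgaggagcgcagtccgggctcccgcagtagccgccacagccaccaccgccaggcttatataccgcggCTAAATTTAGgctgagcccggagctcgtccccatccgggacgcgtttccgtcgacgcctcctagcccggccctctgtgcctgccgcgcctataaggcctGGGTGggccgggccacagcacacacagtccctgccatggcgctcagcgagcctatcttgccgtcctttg
Klf4, chr4:55532426-55532725, minus strand: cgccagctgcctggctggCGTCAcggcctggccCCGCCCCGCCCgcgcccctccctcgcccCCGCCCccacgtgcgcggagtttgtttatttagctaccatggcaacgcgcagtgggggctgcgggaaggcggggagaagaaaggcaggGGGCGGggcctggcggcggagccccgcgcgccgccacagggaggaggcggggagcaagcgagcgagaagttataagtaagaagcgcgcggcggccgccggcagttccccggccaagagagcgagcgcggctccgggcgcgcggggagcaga
The Klf2 promoter held 1 CACCC box (as GGGTG), 2 GC boxes, 1 TGACG and 1 MEF2 box, the last starting 118 bases before the RefSeq start site. The Klf4 promoter held 4 places of the GC box (2 of which share a base), 1 TGACG and 1 E-box CACGTG, but neither CACCC nor a MEF2 box. Of 32544 distinct mouse promoters of this length, 57.7% held CACCC, 35.9% GGGCGG, 20.9% TGACG, 7.17% CACGTG and 3.16% a MEF2 box. The AP-1 letters TGANTCA (7.79% of promoters), the nuclear receptor half-site AGGTCA (16.2%), CCAAT (37.4%) and TATAAA (13.6%) were found in neither window, which says only that these letters are not there. Both promoters were rich in G and C (69.3% for Klf2 and 74.3% for Klf4, against a median of 53%).

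Klf2 (gene body at chr8:72319033-72321656, plus strand) averaged 49.8 ± 17.4 CPM per kilobase of exon (SD, n = 17), beside 44.0 ± 13.7 for Klf9 and 35.7 ± 6.41 CPM per kilobase for Klf6. These 3 KLF genes were not ordered by level, since the spreads overlapped and the mean of Klf9 was above that of Klf2 in 4 of 6 groups. In KI, Klf2 measured 137, 149 and 138 CPM on vehicle and 72.5, 83.8 and 74.5 CPM on PFOA. The exposed KI mice were all below the KI vehicle mice, by 1.84-fold (log2 fold change -0.88, SE 0.20), the male pair (137 against 72.5 CPM) as well as the females. In KO, Klf2 measured 52.5, 57.3 and 49.9 CPM on vehicle and 102, 70.9 and 110 CPM on PFOA. There the exposed mice were all above the vehicle mice, by 1.77-fold (log2 fold change 0.82, SE 0.20). The log2 fold change in KI was lower than that in KO by a difference of -1.70 (SE 0.28), which is what Klf2 was chosen on. In WT, Klf2 measured 93.2 and 69.8 CPM on vehicle and 95.4, 71.8 and 135 CPM on PFOA, and the groups overlapped. The WT difference, which the choice did not use, was 1.24-fold higher on PFOA (log2 fold change 0.31, SE 0.22, adjusted p = 0.785 with edgeR's quasi-likelihood test).

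**Figure D1:**
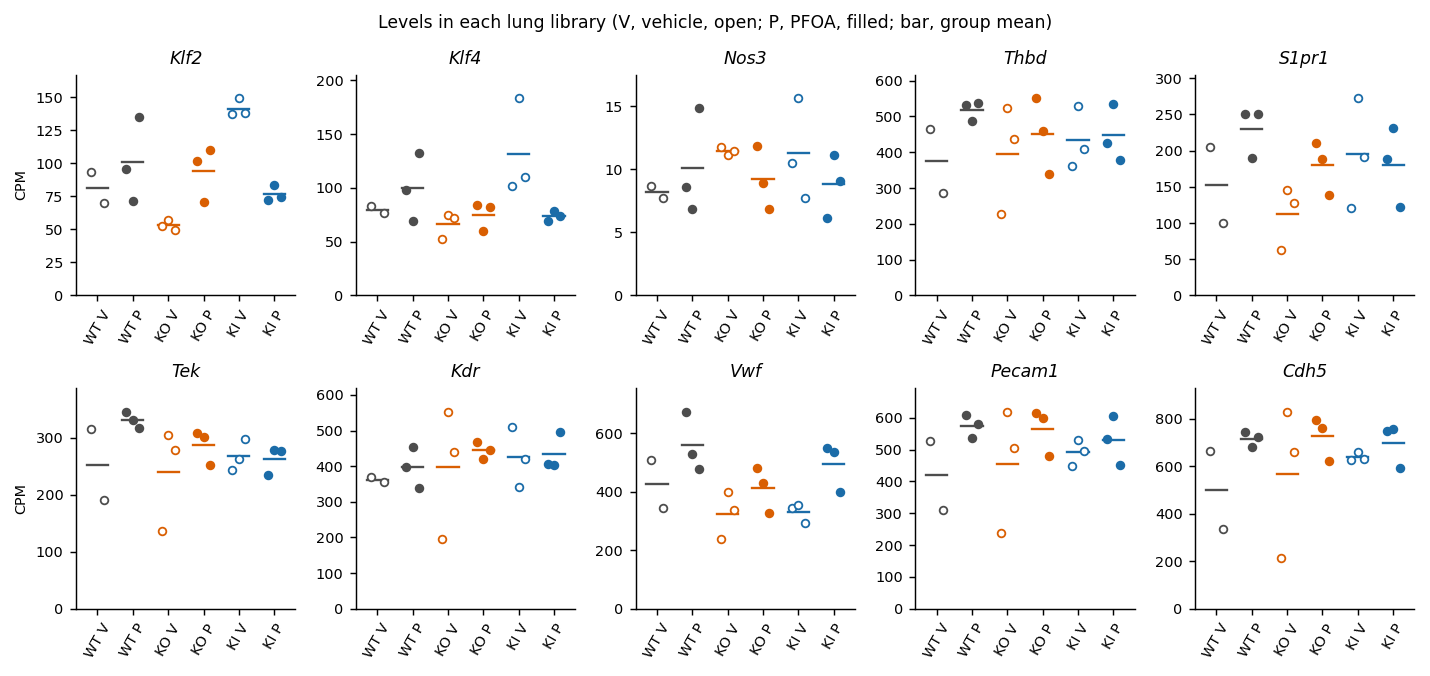
Levels of the 10 genes in each of the 17 lung libraries, in CPM (vertical axis from 0), for WT, KO and KI on vehicle (V, open points) or PFOA (P, filled points); bars are group means. Klf2 separates exposed from vehicle mice in KO (upwards) and KI (downwards), Klf4 in KI, and Cdh5 is lowest in mouse 137 (KO vehicle, 215 CPM) and mouse 122 (WT vehicle, 334 CPM).

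On vehicle the order of the genotypes was KO (53.2 ± 3.76 CPM, SD, n = 3), WT (81.5 ± 16.6, n = 2) and KI (142 ± 6.78, n = 3), and no library of one genotype reached the next. On PFOA the Klf2 means were 76.9 ± 6.02 CPM in KI, 94.2 ± 20.6 in KO and 101 ± 32.1 in WT (n = 3 each), and these 3 groups overlapped. The spread between the genotypes was wider on vehicle than on PFOA. Klf2 was selected on these KO and KI values, and a choice on opposite PFOA differences favours such a spread. It is therefore given as a description, and the share of all genes so separated on vehicle was not counted. With the i5 index as a covariate, the log2 fold change of Klf2 in KO was 1.11 in place of 0.82 and its difference between KI and KO was -2.16. That fit takes the effect of the index of the KO PFOA libraries from WT and KI libraries. It therefore cannot separate index from exposure in KO.

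Klf4 (chr4:55527143-55532466, minus strand), the closest relative of Klf2 in the flow response, measured 102, 183 and 110 CPM on vehicle and 69.6, 78.8 and 73.9 CPM on PFOA in KI. As for Klf2, all exposed KI mice were below all KI vehicle mice. The difference was 1.78-fold (log2 fold change -0.83, SE 0.23, 95% interval -1.32 to -0.34), with an unadjusted p under 0.05 but an adjusted p of 1.0 with edgeR, so it did not pass. Mouse 116 carried the highest vehicle value, and without it the log2 fold change was -0.52. In KO, Klf4 measured 52.5, 74.3 and 72.1 CPM on vehicle and 83.8, 59.8 and 81.9 CPM on PFOA, and in WT 82.7 and 76.5 CPM on vehicle and 97.8, 69.3 and 132 CPM on PFOA. The groups overlapped in both genotypes, with log2 fold changes of 0.18 (SE 0.23, edgeR adjusted p = 0.80) in KO and 0.33 (SE 0.26, adjusted p = 0.808) in WT. Klf4 in KO thus lacked a separation of the kind seen for Klf2. The difference of the Klf4 effect between KI and KO was -1.01 (SE 0.33, 95% interval -1.70 to -0.32, edgeR adjusted p = 0.909) and that between KI and WT -1.16 (SE 0.35, adjusted p = 0.999). On vehicle Klf4 was higher in KI than in WT by 1.66-fold (log2 fold change 0.73, SE 0.26, edgeR adjusted p = 0.369).

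Across the 17 libraries, Klf4 was the gene whose log2 CPM was most like that of Klf2 among the 9226 genes that averaged 100 counts or more per library (Pearson r = 0.84, Spearman rho = 0.88). The libraries share their groups, their scaling and Klf2 itself, so this is a description. Without the 2 libraries farthest from the median of Klf2 (mice 116 and 149) r was 0.88, and over deviations from the group means it was 0.75. The next in rank were Dnaja3, a mitochondrial co-chaperone (r = 0.84), Ccn3, a matricellular protein (r = 0.82), G0s2, an inhibitor of triglyceride lipase (r = 0.81), and Zbed4 (r = 0.79). S1pr1 ranked 233rd (r = 0.55), and the 6 remaining genes with enough counts ranked between 2434th (Tek) and 5784th (Vwf, r = 0.071). Without mice 122 and 137, Cdh5, Pecam1, Vwf, Kdr, Tek and Thbd had r with Klf2 between -0.44 and -0.061, while S1pr1 had 0.40, Nos3 0.26 and Klf4 0.82.

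**Figure D2:**
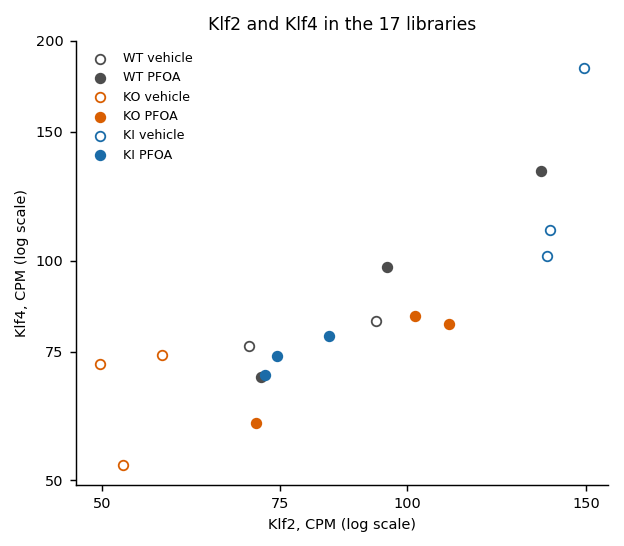
Klf4 against Klf2 in each of the 17 libraries, in CPM on log axes, with open points for vehicle and filled points for PFOA and 1 colour per genotype. The 3 KI vehicle mice lie at the upper right (Klf2 137 to 149 CPM) and the 3 KO vehicle mice at the left (Klf2 49.9 to 57.3 CPM).

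The 3 flow-response genes that KLF2 is known to raise showed no such separation in KI. Nos3 (chr5:24364810-24384474, plus strand), which makes nitric oxide, measured 10.5, 15.7 and 7.73 CPM on vehicle and 6.17, 11.2 and 9.08 CPM on PFOA in KI. These groups overlapped, and its log2 fold changes were 0.31 (SE 0.35) in WT, -0.31 (SE 0.31) in KO and -0.37 (SE 0.31) in KI. Nos3 overlaps Atg9b and Gm15587 on the opposite strand, and how the counting used the strand is not stated. Thbd (chr2:148404466-148408188, minus strand), encoding thrombomodulin, measured 362, 529 and 409 CPM on vehicle and 426, 535 and 379 CPM on PFOA in KI. Its log2 fold changes were 0.46 (SE 0.30) in WT, 0.18 (SE 0.26) in KO and 0.044 (SE 0.26) in KI. Without mouse 122 the WT value was 0.16, and without mouse 137 the KO value was -0.095. In KI the 95% interval of the Thbd difference ran from -0.51 to 0.59 and that of Nos3 from -1.01 to 0.27. The Klf2 value in KI is no measure to set these against, since Klf2 was selected on it. edgeR's adjusted p was 0.728 or more for both genes in each of the 3 genotypes.

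S1pr1 (chr3:115710433-115715072, minus strand), the sphingosine 1-phosphate receptor that seals endothelial junctions and lets T cells leave lymphoid tissue, had its highest log2 fold change in KO, as Klf2 had. In KO it measured 63.3, 145 and 128 CPM on vehicle and 211, 188 and 139 CPM on PFOA, so that only mouse 155 lay within the vehicle range. The log2 fold change was 0.67 in KO (SE 0.33, edgeR adjusted p = 0.518), 0.59 in WT (SE 0.37, adjusted p = 0.748) and -0.11 in KI (SE 0.33, adjusted p = 1.0). Without mouse 107, which leaves mouse 122 as the lone WT vehicle library, the WT value was 1.21, and without mouse 122 it was 0.17. Without mouse 137 the KO value was 0.39 (SE 0.32). Relative to the summed endothelial identity genes described below, S1pr1 was 22.6 to 24.6 per 1000 CPM in KO vehicle mice and 28.3 to 35.9 in KO PFOA mice, with mouse 137 inside the vehicle range. S1pr1 was not alone in this. Pecam1 in KO (85.1 to 97.0 on vehicle, 98.2 to 106 on PFOA) and Vwf in KI (55.4 to 70.3 and 74.4 to 101) were likewise apart on this measure. The share of all genes apart on it was not counted.

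The receptor tyrosine kinase genes Tek (chr4:94739289-94874976, plus strand), which encodes the angiopoietin receptor TIE2, and Kdr (chr5:75932827-75978458, minus strand), which encodes VEGF receptor 2, differed least in KI. Tek was 243 to 299 CPM on vehicle and 235 to 279 CPM on PFOA (log2 fold change -0.023, SE 0.23). Kdr was 342 to 511 CPM on vehicle and 403 to 497 CPM on PFOA (log2 fold change 0.037, SE 0.26). In WT the exposed mice all had more Tek (318 to 346 CPM) than the vehicle mice (190 and 315 CPM), but the gap to mouse 107 was small, and the log2 fold change of 0.39 (SE 0.26) was 0.081 without mouse 122.

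Of the genes taken as measures of endothelial content, Vwf (chr6:125546774-125686679, plus strand), the von Willebrand factor of larger vessels, stood apart from Pecam1 and Cdh5. In KI it measured 344, 356 and 294 CPM on vehicle and 550, 538 and 399 CPM on PFOA. All exposed KI mice were above all KI vehicle mice, opposite in direction to Klf2, by 1.49-fold (log2 fold change 0.58, SE 0.22, 95% interval 0.12 to 1.03), with an unadjusted p under 0.05 and an edgeR adjusted p of 1.0. The Vwf log2 fold changes were 0.40 (SE 0.24) in WT and 0.34 (SE 0.22) in KO, with overlapping groups, and were 0.15 in WT without mouse 122 and 0.16 in KO without mouse 137. Fitted over the 3 genotypes together, Vwf was 0.44 higher on the log2 scale on PFOA (SE 0.12, edgeR adjusted p = 0.436). Megakaryocytes and platelets also make Vwf, and the sum of 7 of their marker genes was 18.7 to 39.6 CPM on vehicle and 19.0 to 50.6 CPM on PFOA in KI, where none of the 7 had an unadjusted p under 0.05; their part in the Vwf values was not tested.

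Pecam1 (chr11:106654217-106750628, minus strand), an adhesion molecule of endothelium and blood cells, and Cdh5 (chr8:104101625-104144511, plus strand), the cadherin of endothelial junctions, were near level in KI. Cdh5 measured 626, 660 and 632 CPM on vehicle and 749, 759 and 591 CPM on PFOA there (log2 fold change 0.13, SE 0.32), and Pecam1 450 to 530 and 452 to 605 CPM (log2 fold change 0.11, SE 0.26). Gm29682 overlaps Cdh5 on the opposite strand. In KO, Cdh5 measured 215, 831 and 662 CPM on vehicle and 796, 763 and 623 CPM on PFOA. Its log2 fold change of 0.35 (SE 0.32) rested on mouse 137 and was -0.039 without it, while Klf2 in mouse 137 was at 98.1% of the other KO vehicle mice. In WT, Cdh5 measured 663 and 334 CPM on vehicle and 745, 681 and 725 CPM on PFOA, a log2 fold change of 0.52 (SE 0.37) that was 0.12 without mouse 122. In bulk tissue, fewer cells of a type and less RNA per cell cannot be told apart.

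**Figure D3:**
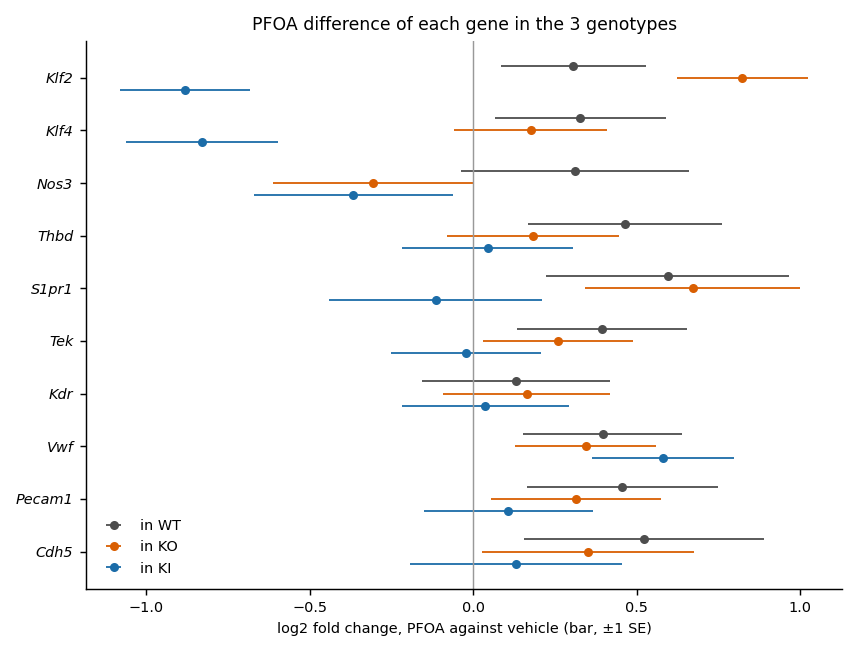
Log2 fold change of PFOA against vehicle for each of the 10 genes in WT, KO and KI, with bars of ±1 SE from the edgeR fit. Klf2 and Klf4 lie left of 0 in KI (-0.88 and -0.83), Vwf lies right of 0 in all 3 genotypes (0.34 to 0.58), and the remaining genes lie within 0.37 of 0 in KI.

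Counted over the list, none of the 10 genes passed an adjusted p under 0.2 with a fold change over 2 in WT PFOA against vehicle, and none of the 9 other than Klf2, which was not tested there, did so in the other comparisons. This call rule took 0.0% of the 26946 genes tested in PFOA against vehicle within WT, KO or KI, in the differences between the genotypes' PFOA effects and over the genotypes together. In KO against WT it took 1.37% of all genes on vehicle and 1.01% on PFOA, and in KI against WT 0.857% on vehicle and 0.527% on PFOA. At an unadjusted p under 0.05, 0 of 10 members differed in WT (7.35% of all genes), 0 of the 9 other than Klf2 in KO (9.79%) and 2 of these 9 in KI (Klf4 lower and Vwf higher, 2.59%). It was 1 of 9, Klf4, for the KI against WT difference (4.58%) and for the KI against KO difference (5.42%), and 1 of 9, Vwf, over the genotypes (8.27%). With DESeq2, S1pr1 in KO was added to these. Groups that did not overlap were found for 4 members in WT (Thbd, Tek, Pecam1 and Cdh5 above, 22.5% of all genes), for 1 in KO (Klf2, 12.8%) and for 3 in KI (Vwf above, Klf2 and Klf4 below, 8.23%), where Klf2 was chosen for it. In WT all 10 log2 fold changes were above 0 (median 0.39, against 0.036 over all genes), and in KI 5 of the 9 other than Klf2 were above 0 (median 0.037, against 0.0053). The size of most WT differences rested on mouse 122, which was at 48.5% (S1pr1) to 96.6% (Kdr) of mouse 107 for the 10 genes. All 10 stayed above 0 without mouse 122, between 0.081 (Tek) and 0.28 (Klf4). Without mouse 107, 6 of 10 members in WT had an unadjusted p under 0.05, where 17% of all genes did in the same fit, and without mouse 122 there were 0 (2.16% of all genes). Without KO vehicle mouse 145 the KO count was 4 of 9 (14.1% of all genes), and without mouse 137 it was 0 (4.14%).

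Endothelial identity was followed with 24 further genes, none of them among the 10. In KI their median log2 fold change was 0.041 (16 above and 8 below 0, between -0.41 and 0.30), and none had an unadjusted p under 0.05. In KO the median was 0.16 with 19 above 0 and none under 0.05. The summed level there was 2803 CPM in mouse 137, against 5197 and 6434 CPM in the other vehicle mice and 4900 to 5874 CPM on PFOA. Without mouse 137 the KO median was -0.096, with 4 of 24 above 0, and only Acvrl1 was under 0.05, as lower. In WT the median was 0.34 with all 24 above 0, of which Cyyr1 (0.66, SE 0.31) and Erg (0.65, SE 0.26), an endothelial transcription factor, were under 0.05. The WT vehicle sums were 3875 CPM in mouse 122 and 5669 CPM in mouse 107, against 6164 to 6306 CPM on PFOA. Without mouse 122 the WT median was 0.11 with 20 above 0, and neither Cyyr1 (0.30, SE 0.37) nor Erg (0.25, SE 0.29) was under 0.05. Klf2 relative to the sum of these genes was 26.05 to 28.9 CPM per 1000 CPM in KI vehicle mice and 13.3 to 14.9 in KI PFOA mice. The log2 difference was -0.98, and -0.84 relative to the median of the list in place of its sum. Klf4 relative to the same sum was 20.7 to 35.5 and 12.7 to 14.0 per 1000 CPM there, likewise apart. In KO the relative Klf2 level was 8.90 to 18.7 on vehicle and 12.5 to 22.5 on PFOA, which overlapped through mouse 137, and the log2 difference was 0.53 with it and 0.87 without it. In WT it was 16.4 and 18.01 on vehicle and 11.6 to 21.6 on PFOA.

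**Figure D4:**
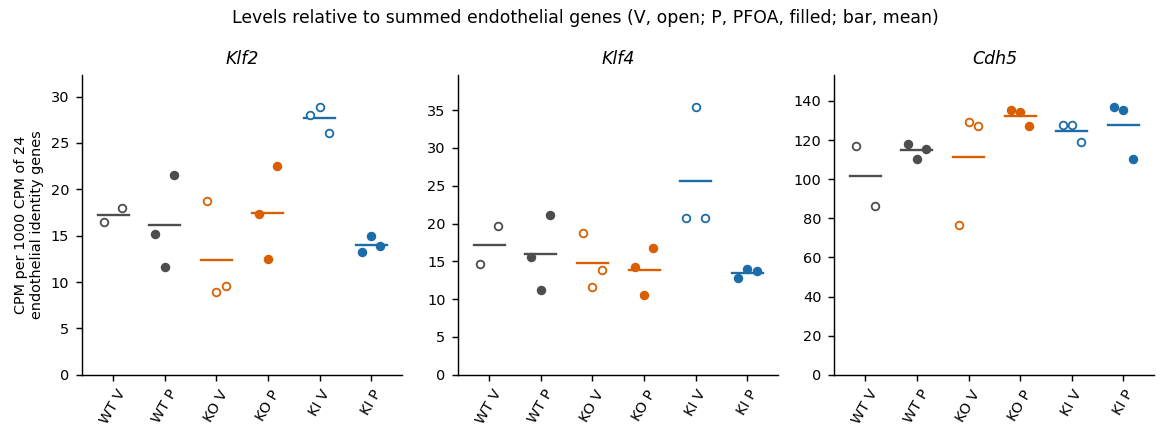
Klf2, Klf4 and Cdh5 in each library as CPM per 1000 CPM of 24 summed endothelial identity genes (vertical axes from 0), by group; bars are group means, open points vehicle and filled points PFOA. In KI, Klf2 lies at 26.05 to 28.9 on vehicle and at 13.3 to 14.9 on PFOA, and the highest KO vehicle point for Klf2 (18.7) is mouse 137.

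Other genes of the pathway were taken from 3 lists. Of 12 further genes that shear stress or KLF2 raises, such as Aqp1, Gja4 and Plpp3, 0 had an unadjusted p under 0.05 in WT, KO or KI, and the KI median was 0.057. Of 12 genes that they lower, such as Edn1, Vcam1 and Icam1, 0 did so in WT and KI, and Angpt2, an antagonist of TIE2, was higher in KO (log2 fold change 0.53, SE 0.23, edgeR adjusted p = 0.495), or 0.31 (SE 0.22) without mouse 137. Edn1, encoding endothelin, had log2 fold changes of -0.42 (SE 0.22) in KO and -0.12 (SE 0.22) in KI. Without mouse 137, Edn1 was lower in KO at an unadjusted p under 0.05, the only one of the 12 (4.14% of all genes in the same fit). Of 14 upstream genes, from Piezo1 to the MEF2 factors, 0 were under 0.05 in WT and KI, and Foxo1, which drives Klf2 in T cells, was higher in KO (47.0, 71.5 and 77.6 CPM on vehicle against 90.1, 97.7 and 86.4 CPM on PFOA, log2 fold change 0.48, SE 0.18, edgeR adjusted p = 0.477). Without mouse 137 the Foxo1 value was 0.29 (SE 0.15) and not under 0.05. Without mice 122 and 137 together it was 0.29 (SE 0.14), and whether it was under 0.05 depended on the fit. Of the 12 other KLF genes tested, Klf3 (0.42) and Klf7 (0.54) were higher and Klf5 (-0.42) lower in WT, Klf13 was higher in KO (0.49), and 0 were under 0.05 in KI. Klf3 (0.19) and Klf7 (0.31) without mouse 122 and Klf13 (0.31) without mouse 137 were no longer under 0.05. Klf10, lower in KO, came under 0.05 without mouse 137. Among 34 ligands and partners of the 10 proteins, Spns2, the exporter of sphingosine 1-phosphate, was higher in WT (0.56, SE 0.22), Flt4 and Angpt2 were higher and Nos1 lower in KO, and 0 were under 0.05 in KI. Without the low library of the same genotype, 0 of the 34 were under 0.05 in WT or KO.

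Immediate early genes, which like Klf2 and Klf4 answer stimuli quickly, lay mostly below 0 in KI. Of 16 genes, 12 had log2 fold changes below 0 there (median -0.32), and 4 had an unadjusted p under 0.05 (2.59% of all genes). These were Nr4a1 (-0.88, SE 0.35), Dusp1 (-0.74, SE 0.28), Btg2 (-0.35, SE 0.14) and Zfp36 (-0.32, SE 0.14), each with an edgeR adjusted p of 1.0. The Dusp1 groups overlapped (118, 271 and 149 CPM on vehicle, 97.8, 138 and 86.6 CPM on PFOA). Mouse 116 held the highest vehicle value of Dusp1 and of Btg2 (151 CPM), as it did for Klf4, and this list was not fitted without it. Nr4a1, a nuclear receptor, measured 29.1, 28.6 and 23.2 CPM on vehicle and 10.8, 12.1 and 21.1 CPM on PFOA in KI, which did not overlap. Fos (-0.34, SE 0.37) and Egr1 (-0.091, SE 0.34) did not differ beyond their errors in KI. In KO the median of the list was 0.26 (10 of 16 above 0), with Btg2 under 0.05 (0.42, SE 0.14), where 9.79% of all genes were. Without mouse 137, 13 of 16 were above 0 in KO (median 0.28). Btg2 and Zfp36 were then higher at an unadjusted p under 0.05 (4.14% of all genes in the same fit). In WT the median was -0.11 with 0 under 0.05, and 0.0013 without mouse 122. The time from death to freezing of each lung is not given in the sources used here, and the part of such differences in the Klf2 and Klf4 values was not tested.

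Markers of the vessel classes were counted in the same way, beside 7.35% of all genes under 0.05 in WT, 9.79% in KO and 2.59% in KI. The general capillary list (7 genes) held Lpl, encoding lipoprotein lipase, which was higher on PFOA in WT (0.75, SE 0.34), KO (0.88, SE 0.30) and KI (0.85, SE 0.30), with edgeR adjusted p-values of 0.650, 0.474 and 1.0, and it is a known PPAR target made by other lung cells too. The Lpl value was 0.49 (SE 0.43) in WT without mouse 122 and 0.77 (SE 0.33) in KO without mouse 137. In KI, Lpl measured 152, 115 and 126 CPM on vehicle and 365, 231 and 112 CPM on PFOA. These KI groups overlapped, with mouse 139 below all KI vehicle mice. Of 6 venous genes, Slc6a2 (0.71, SE 0.32) and Vwf were under 0.05 in KI. None of 7 aerocyte capillary genes was under 0.05 in any genotype, and of 8 arterial genes Cxcl12 (0.58) in WT and Efnb2 (0.46) in KO were. Of 6 lymphatic genes, Mmrn1 (0.80), Ccl21a (0.50) and Flt4 (0.45) were higher in KO. Without mouse 122 (for WT) or mouse 137 (for KO), Cxcl12 was 0.19, Efnb2 0.24, Ccl21a 0.26 and Flt4 0.29, none under 0.05, and Mmrn1 was 0.50 and still under 0.05. Kit of the general capillary list and Ackr1 of the venous list were lower in KO and came under 0.05 without mouse 137.

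Some blood cells also make Klf2. At an unadjusted p under 0.05, in either direction, the shares of all genes were 7.35% in WT, 9.79% in KO and 2.59% in KI. These stand beside the counts below. Of 13 T and NK cell genes, 8 in WT and 10 in KO were higher at that threshold and 0 in KI. Without mouse 122 the WT median of the 13 genes was 1.14 in place of 1.28. Without mouse 137 the KO count was 9 of 13 (4.14% of all genes in the same fit). The summed level of the 13 genes was 72.2 to 82.7 CPM on vehicle and 127 to 207 CPM on PFOA in KO, 40.1 and 54.3 against 83.9 to 115 CPM in WT, and 71.0 to 138 against 75.9 to 129 CPM in KI. Ccr7, a chemokine receptor of lymph node homing, was higher on PFOA in KO (log2 fold change 1.34, SE 0.41, edgeR adjusted p = 0.469). It was higher in WT too (1.73, SE 0.53, edgeR adjusted p = 0.482), where the Klf2 groups overlapped. Without mouse 122 the WT value of Ccr7 was 1.49 (SE 0.68). None of 6 B cell genes was under 0.05 in any genotype, and their median log2 fold change was 1.21 (WT), 0.95 (KO) and -0.94 (KI). The neutrophil, monocyte and macrophage, and platelet lists had medians above 0 in all 3 genotypes, KI included. Of 6 neutrophil genes, 5 were higher in KO and 1 in KI (KI median 0.78). Of 9 monocyte and macrophage genes, 4 were higher in KO and 1 in KI (KI median 0.32). Without mouse 137 the KO count was 1, which depended on the fit, and the KO median was 0.43 in place of 0.70. Of 7 platelet genes, 3 were higher in KO (KI median 0.47). Without mouse 122 the monocyte and macrophage median in WT was -0.024 in place of 0.45. Airway epithelium genes were lower in WT (8 of 9, median -1.05), with 0 of 9 in KO and KI. Without mouse 122 the WT median was -0.41. The 7 cardiac muscle genes, from heart tissue or pulmonary vein sleeves, summed to 319 to 7609 CPM over the libraries, and in KI to 2236 to 7609 CPM on vehicle and 614 to 6444 CPM on PFOA. None of these cells was measured apart from the others, and their part in the levels of the 10 genes was not tested.

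**Figure D5:**
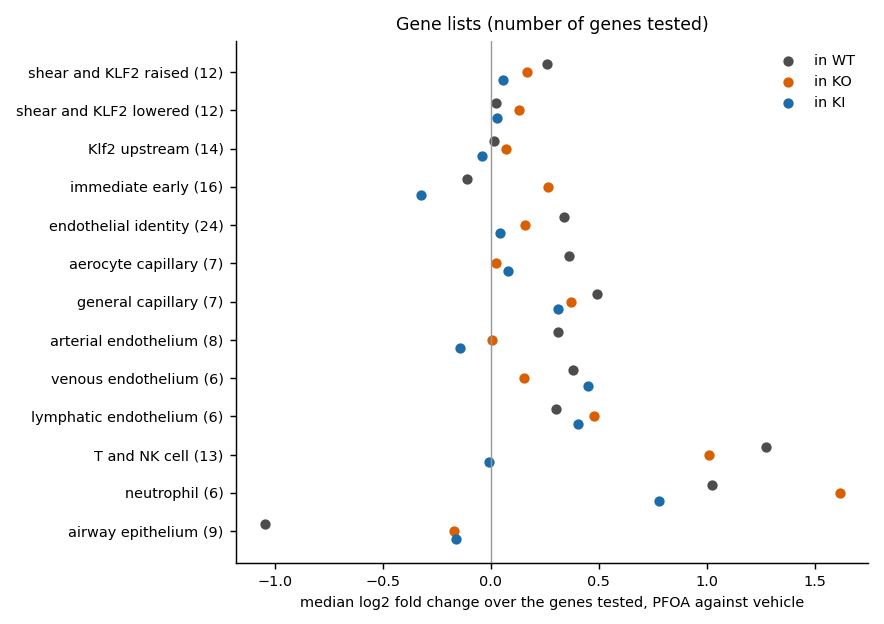
Median log2 fold change of PFOA against vehicle over the genes tested in each of 13 lists (number of genes in brackets), in WT, KO and KI; 1 point per list and genotype. In KI the endothelial identity list lies near 0 (0.041) and the immediate early list at -0.32, while the T and NK cell list lies at 1.28 in WT and 1.01 in KO but at -0.0078 in KI.

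Per kilobase of exon, which allows levels of different genes to be compared, the order over the 17 libraries was Cdh5 (155 ± 37.5 CPM per kilobase, SD), Thbd (118 ± 25.7), Pecam1 (82.0 ± 16.96), Tek (58.4 ± 11.2), S1pr1 (57.8 ± 19.3), Klf2 (49.8 ± 17.4), Kdr (45.7 ± 9.02), Klf4 (29.0 ± 10.2), Vwf (26.5 ± 7.03) and Nos3 (2.41 ± 0.656). Cdh5 was above Thbd in 16 of 17 libraries, and Thbd above Pecam1, Pecam1 above Tek and Vwf above Nos3 in all 17. Of the next 4, neighbours could not be ordered, since Tek was above S1pr1 in 10 of 17 libraries, S1pr1 above Klf2 in 11 and Klf2 above Kdr in 10, whereas Tek was above Kdr in 16 of 17. Klf4 and Vwf could not be ordered either, with Klf4 above in 8.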

How the data were processed

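RNA of snap-frozen whole lung was sequenced from 17 mice. The authors made libraries with a stranded total RNA kit, trimmed 3′ bases of low quality, ran the STAR 2.6 aligner of Partek Flow against mm10, and deposited estimated counts per gene from an expectation-maximization model, not normalized (29.9% of the cells of the table were not whole numbers). The submitters' processing notes also name DESeq2 3.5. The strand setting and the annotation are not given in the sources used here, and gene positions and exon lengths were taken from GENCODE M21 (96.7% of names matched once).

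Counts were rounded, the 26946 genes whose counts summed to 20 or more were tested, and edgeR 4.0.16 in R 4.3.3 fitted 1 coefficient per group over all 17 libraries with TMM factors and its quasi-likelihood test. Benjamini-Hochberg adjustment ran over all these genes, and a call required a fold change over 2 besides an adjusted p under 0.2. PFOA over the genotypes came from an additive model. Log2 fold changes are given with their SE, and CPM values use TMM-scaled totals. The test recovered changed genes in simulated data. Klf2 was not tested in comparisons that its selection used. The members and gene lists were chosen with earlier results of these data known. The genes named are the members, the 5 most like Klf2, the KLF family, and up to 3 genes per list with an unadjusted p under 0.05, together with a few named as examples of a list after their values were seen, such as Zfp36, Fos, Egr1, Edn1 and Aqp1. One symbol in the immediate early list was updated to the one used in the table.

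Total counts of 4116116 to 9237385 put 3 counts at 0.325 to 0.729 CPM. Replicate pairs differed by more than sampling noise (16 pairs, chi-square per degree of freedom 6.28 or more). Alternatives were DESeq2 1.42.0, RLE factors, no filter, filterByExpr, robust estimation, covariates (sex, i5 index, protein-coding share), leaving out mice 122 and 137 (for the gene lists, added after seeing the data), and leaving out each library. Tables and figures were made with Python 3.11.15, pandas 2.3.3 and matplotlib 3.10.9.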

Additional observations from a re-analysis of the deposited data

Results flagged for a closer look

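The PFOA effect on Klf2 in KI was lower than that in KO by a log2 difference of -1.70. All 3 exposed KI mice were below the KI vehicle mice, and all 3 exposed KO mice were above the KO vehicle mice. The difference was not tested, because Klf2 was selected on it.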

How the results depend on the processing

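The 35 single log2 fold changes were recomputed under 26 alternatives. No paired analysis was possible because the labels number each mouse once and the groups share no number. RLE factors, no filter, filterByExpr, robust estimation, sex as a covariate and DESeq2 turned no direction. With the i5 index as a covariate, Kdr in WT was -0.018, Tek in KI 0.0035 and Thbd in KI -0.0076. With the protein-coding share, Cdh5 in WT was -0.041, Kdr in WT -0.24 and Thbd in KO -0.015. Without mice 122 and 137 together, Cdh5 in KO was -0.038, Kdr -0.16, Tek -0.019 and Thbd -0.094. Taken relative to the median of the identity list, the KI difference of Klf2 was -0.84. Counts of members with an unadjusted p under 0.05 follow, each with the share of all genes in the same fit. In KO they numbered 1 with no filter (11.4%), with sex (9.5%) and with DESeq2 (8.47%), S1pr1 each time. With the i5 index they numbered 2 in KO (7.3%), where index and exposure cannot be told apart. With the index they numbered 1 in WT (5.43%) and 2 for KI against KO (4.41%), and with sex 2 over the genotypes (8.6%).

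Leaving out each library gave 0 members called, apart from PFOA against vehicle in WT without mouse 107. That fit rests on mouse 122 as the lone WT vehicle library, and the share of all genes called in it was not counted. The Klf2 difference in WT was 0.037 to 0.53. Values that changed sign ranged from -0.039 to 0.73 (Cdh5), -0.16 to 0.48 (Kdr), -0.020 to 0.46 (Tek) and -0.095 to 0.43 (Thbd) in KO, from -0.098 to 0.19 (Kdr), -0.36 to 0.20 (S1pr1), -0.090 to 0.062 (Tek) and -0.11 to 0.21 (Thbd) in KI, and from -0.077 to 0.52 (Nos3) in WT. Members under an unadjusted p of 0.05 numbered 0 to 6 in WT (6 without mouse 107, 17%, and 4 without mouse 137, 10.4%), 0 to 4 in KO (4 without mouse 145, 14.1%), 1 to 2 in KI (1 without mouse 135, 2.39%, or mouse 57, 2.34%), 1 to 3 for KI against WT (3 without mouse 107, 11.8%), 1 to 2 for KI against KO (2 without mouse 102, 5.01%) and 1 to 3 over the genotypes (3 without mouse 145, 9.63%, or mouse 139, 10%). For the gene lists, fits without mice 122 and 137 were chosen after seeing the data. In KO without mouse 137, medians that changed sign were aerocyte capillary (-0.23), venous (-0.12), endothelial identity (-0.096), Klf2 upstream (-0.028) and ligands and partners (-0.059). The alveolar type 1 cell (-0.075) and pericyte (-0.026) medians did so too. In WT without mouse 122 they were monocyte and macrophage (-0.024, or -0.026 without both), lymphatic (-0.074), alveolar type 1 cell (-0.037) and alveolar type 2 cell (-0.38). The erythroid (-0.26), immediate early (0.0013, or -0.00082 without both) and shear-lowered (-0.048) medians in WT did so too. Apart from these constructions, the cause was not tested. With 2 WT vehicle mice, a fit without either assumes that the lone mouse varies like the other groups. Nos3, at 46 to 123 counts, had the least depth of the 10 genes.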
